A study of Mus musculus with 42 samples.

Results

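The genes of the NF-kB subunits, Relb, Nfkb2, Nfkb1, Rel and Rela, were followed through the response of mouse pre-B cell lines to ionizing radiation. The 5 genes were chosen with earlier results of these data known. Their probe sets were chosen by gene symbol alone: every probe set that the platform annotation gives 1 of these 5 symbols was taken. This gave 5 probe sets of 4 genes among 45037 probe sets that are not controls. Nfkb1 was not analysed here. The other 4 genes passed the filter on dim probe sets and were among 12363 genes tested.

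NF-kB is a family of transcription factors that act as pairs of subunits and are held in the cytoplasm until a signal releases them. In the canonical pathway, the IKK kinase complex marks the IkB inhibitor proteins for degradation, and pairs that contain RelA or c-Rel (the products of Rela and Rel) enter the nucleus. In the noncanonical pathway, the kinase NIK leads to processing of the Nfkb2 precursor protein, which pairs with RelB. DNA double-strand breaks are known to activate the canonical route through the kinase ATM, and Relb and Nfkb2 are themselves known target genes of NF-kB. In developing B cells the pathway supports survival and maturation.

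Gene expression had been measured in 21 pre-B cell lines of 7 genotypes, 3 lines per genotype, on 42 Affymetrix arrays. All lines, controls included, came from bone marrow of Eμ-Bcl2 transgenic mice aged 3 to 5 weeks, whose Bcl2 transgene is driven by an immunoglobulin enhancer and protects B-lineage cells from apoptosis. All were transformed by v-abl, a tyrosine kinase oncogene, delivered in a pMSCV-v-abl retrovirus. Each line was sampled after mock treatment (untreated) and 2 h after 1 Gy of gamma rays, and the study compared the response of each genotype with that of wild type (WT) and of the other mutants. The genotypes were WT; Atm-/-, without the ATM kinase; Scid, in which the DNA-PK catalytic subunit gene Prkdc carries a point mutation; Mre11A/A, an allele of the nuclease that binds broken ends together with its complex; and 53bp1-/-, H2ax-/- and Mdc1-/-, which lack proteins that mark or bind chromatin next to a break. The labels do not say how many mice gave the 3 lines of a genotype, or whether a line is clonal. P-values therefore measure the spread between these lines, pooled over the 7 genotypes. For responses it is the spread of the change within lines. The standard error (SE) of a gene's response is then the same in every genotype, whatever the spread of its own 3 lines.

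Of 10 listed pre-B cell markers, 9 were named by the annotation (among them Cd79a, Pax5, Ebf1 and Rag1), and these 9 lay above the median signal of every array, with a summed signal of 74802 to 132258. No T cell (of 6), erythroid (of 3) or stromal (of 6) marker did so, and 1 of 8 myeloid markers, Csf1r, did; the summed T cell signal was 88.7 to 355. Transcripts of Atm, H2ax and Mdc1 were lower without overlap with WT in the lines that lack them, and so was 1 of 2 Mre11a probe sets in Mre11A/A lines, where the other set was higher (251 against 174). Trp53bp1 was lower without overlap in 53bp1-/- lines on 1 of its 6 probe sets, and the Prkdc signal of Scid lines overlapped that of WT. The irradiated arrays of Atm-/- line 2 and WT line 4 had median signals of 115 and 103, against 62.3 to 82.7 on the other 40.

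The promoter windows of the members are shown because Nfkb2 rose after radiation while Rel and Rela were not called, and because NF-kB pairs bind a known DNA element, the kappaB site. RefSeq (GRCm38.p6) windows of 250 bases before a transcript start were held for 3 of the 5 genes, Nfkb2 (3 starts), Rel and Rela. They were searched on both strands for the 10-base kappaB consensus, and capitals mark every match, with the letters as on the strand of the gene. The first 2 windows below end at the base before the transcript start, are written 5′ to 3′ on the strand of the gene, and lie at chr19:46304487-46304736 (plus strand, Nfkb2) and chr11:23770970-23771219 (minus strand, Rel).
Nfkb2: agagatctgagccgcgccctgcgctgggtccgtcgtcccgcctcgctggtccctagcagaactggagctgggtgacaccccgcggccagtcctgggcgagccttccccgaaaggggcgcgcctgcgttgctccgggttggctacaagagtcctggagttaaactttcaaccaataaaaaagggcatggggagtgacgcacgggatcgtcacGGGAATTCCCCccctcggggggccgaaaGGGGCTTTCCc
Rel: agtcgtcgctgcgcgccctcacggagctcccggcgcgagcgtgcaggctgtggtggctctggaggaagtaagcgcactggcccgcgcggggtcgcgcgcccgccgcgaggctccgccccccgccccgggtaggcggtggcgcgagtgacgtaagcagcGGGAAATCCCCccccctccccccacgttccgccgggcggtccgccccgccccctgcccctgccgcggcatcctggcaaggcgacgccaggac
Positions are counted back from the transcript start, with -1 as the base before it. The Nfkb2 window held GGGAATTCCC at -39 to -30, GGAATTCCCC shifted from it by 1 base and matched on the opposite strand, and GGGGCTTTCC at -11 to -2, which gave 3 distinct positions. The other Nfkb2 windows held 1 match each, GGAATGTCCC at chr19:46305445-46305694 (-236 to -227) and GGGACTTTCC at chr19:46305680-46305929 (-225 to -216). Rel held GGGAAATCCC at -92 to -83 and GGAAATCCCC, which overlaps it, and the window of Rela (chr19:5637291-5637540, plus strand) held 0 matches. Of 32851 promoter windows of the same length, 3.9% held a match, and 4.46% of 27025 genes did. A match is a description of the letters and not a measured binding site.

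In untreated cells no subunit gene was called as different between genotypes. Values are deposited MAS5 signals, which are linear probe-set brightness scaled per array, and signals of different probe sets are not comparable as amounts. Untreated Relb was dim in every genotype, from a mean of 45.1 ± 18 (SD, n = 3) in Mdc1-/- and 49.1 ± 24.0 in WT, over 60.7 in H2ax-/-, 61.1 in 53bp1-/-, 67.7 in Mre11A/A and 86.7 in Scid, to 91.0 ± 38.8 in Atm-/- lines. It lay above the median signal of its own array on 25 of 42 arrays. Every pair of neighbours in this order overlapped between lines.

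Nfkb2 was measured by 2 probe sets. The names of the sets end in _x_at, which marks probes that may also match other transcripts, and in _a_at, which marks probes shared by transcripts of 1 gene. The _x_at set stood for the gene, by the rule of highest mean signal. Untreated, the _x_at set ran from 149 ± 19.3 in Mre11A/A to 263 ± 40.4 in H2ax-/-, and WT lay at 203 ± 131. The _a_at set ran from 66.5 ± 45.0 in Scid to 131 ± 29.0 in H2ax-/-, and WT lay at 118 ± 49.7. The genotypes were thus in different orders on the 2 sets, and neighbours overlapped in both.

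Rel, which encodes c-Rel, ran untreated from 146 ± 24.4 in Mdc1-/- to 236 ± 9.88 in Scid, with WT at 235 ± 31.7. The log2 difference of Mdc1-/- from WT was -0.63 ± 0.25 (SE, adjusted p = 0.232). Rela, which encodes RelA, the most widely used canonical subunit, ran from 1284 ± 312 in Atm-/- and 1293 ± 84.8 in WT to 1612 ± 56.9 in Mdc1-/- lines. Its difference in Mdc1-/- lines was 0.32 ± 0.14 (adjusted p = 0.285). Neighbouring genotypes overlapped for both genes, but Mdc1-/- and WT lines, which are not neighbours, did not. The highest Rel signal of untreated Mdc1-/- lines was 174 and the lowest of WT 203. For Rela the lowest of Mdc1-/- was 1559 and the highest of WT 1377. This separation is a description only. In limma's fit of the 21 untreated arrays, none of the 4 genes was called against WT in any mutant (1.55% of 74178 tests were called over 6 comparisons), and none was called among the 7 genotypes by the F test (adjusted p of 0.698 for Relb, 0.415 for Nfkb2, 0.32 for Rel and 0.283 for Rela; 12.1% of all genes were called). Of the 24 tests against WT, the difference of Rel and that of Rela in Mdc1-/- lines were the only 2 with an unadjusted p under 0.05.

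**Figure D1:**
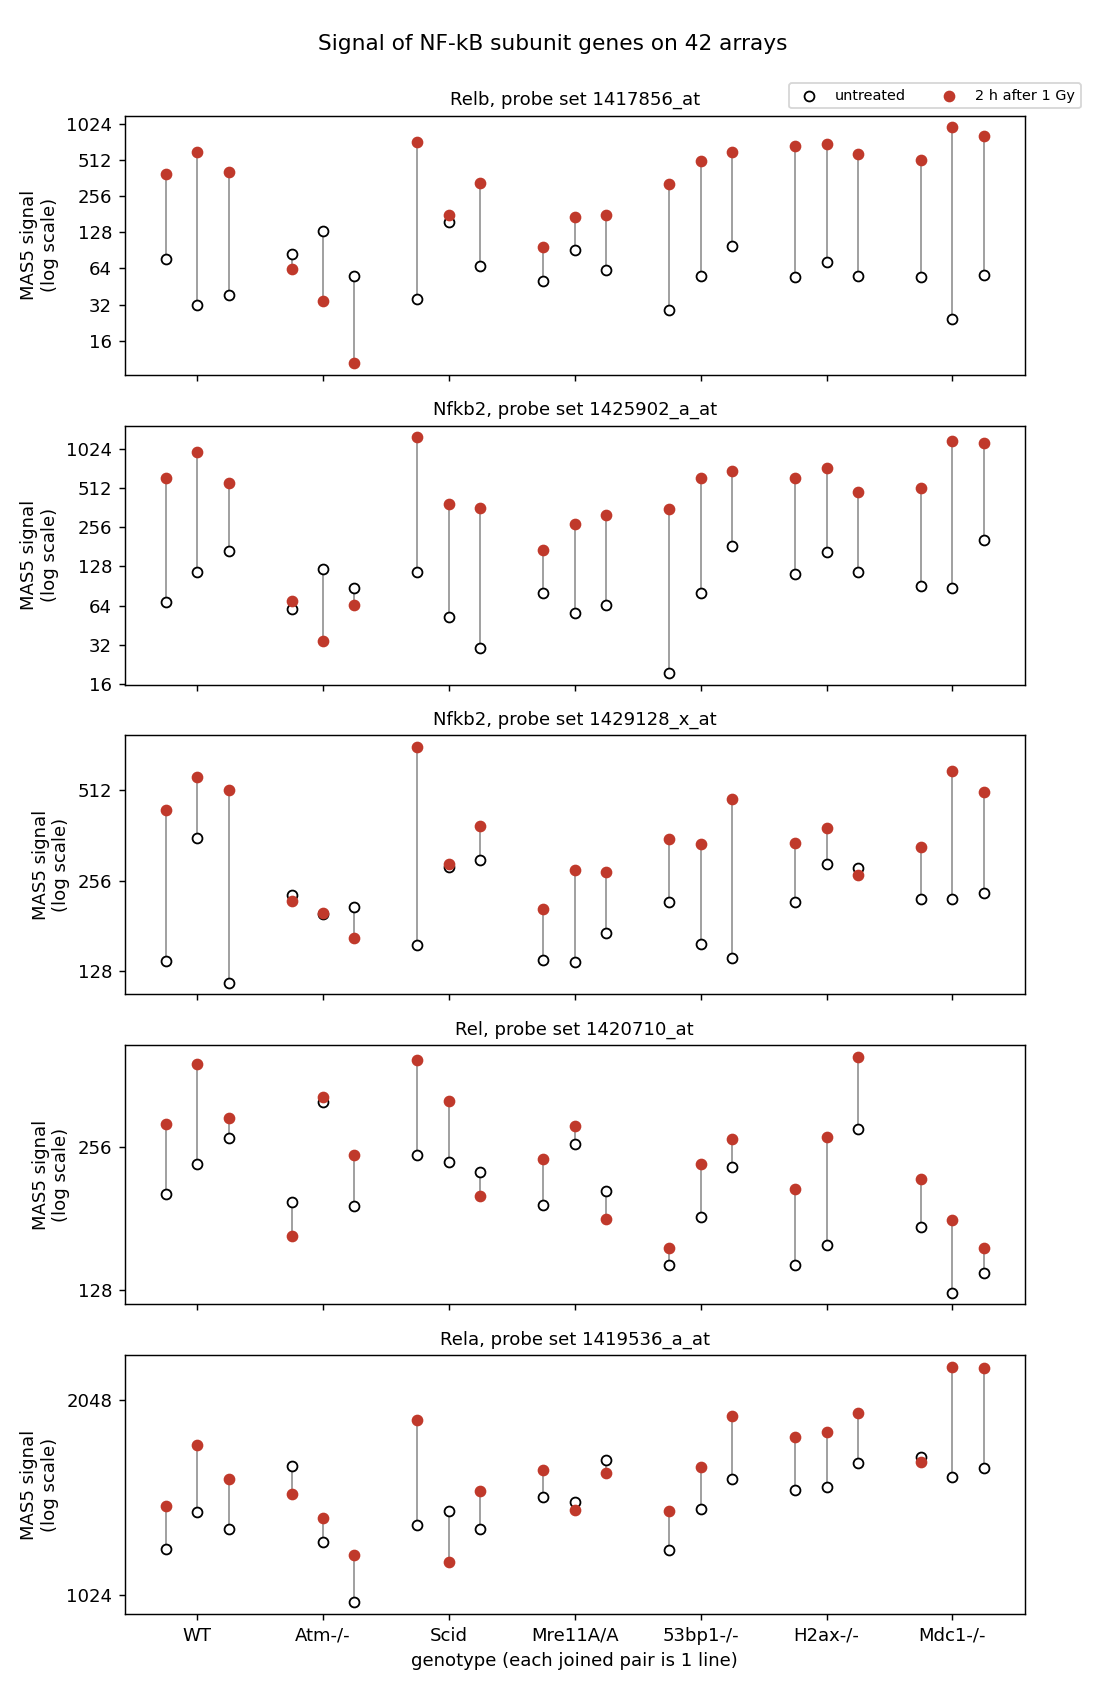
Deposited MAS5 signal (vertical axis, log scale) of each subunit probe set in 21 lines grouped by genotype (horizontal axis); open points are untreated arrays, filled points arrays 2 h after 1 Gy, and a grey line joins both arrays of 1 line. Relb and the Nfkb2 _a_at set are higher after radiation in every line that is not Atm-/-, with irradiated Relb signals of 95.9 to 956, while the pairs of Rel and Rela lie closer together.

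Relb rose after radiation in 5 of the 7 genotypes. Its mean change was above that of Nfkb2 on its _x_at set, Rel and Rela in the 6 genotypes other than Atm-/-, while the Nfkb2 _a_at set changed more than Relb in Scid and Mre11A/A lines. In WT lines 1, 3 and 4 its signal was 76.5, 32.0 and 38.7 untreated and 388, 594 and 404 after 1 Gy. All 3 irradiated WT arrays lay above all untreated ones. Here and below, such separation of arrays is a description only, since the share of all genes that show it is not given here. In RNA from a whole culture, a change in the share of cells that express a gene and a change in RNA per cell cannot be told apart. On the scale of log2(signal + 16), which understates changes of dim probe sets, the mean change within lines (irradiated minus untreated) was 2.91 ± 0.42 (SE, adjusted p = 0.00021, limma with line as a block, Benjamini-Hochberg over all genes). Of all genes, 3.76% were called in WT lines at an adjusted p under 0.05, the threshold used throughout.

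Atm-/- lines had no such rise. Their Relb signals in lines 1, 2 and 3 were 85.0, 133 and 55.5 untreated and 64.0, 34.0 and 10.5 after 1 Gy. The value was lower in 3 of 3 lines, although the arrays of both treatments overlapped. The log2 change was -1.11 ± 0.42 and was not called (unadjusted p = 0.014, adjusted p = 0.191; 1.33% of all genes were called in Atm-/- lines). The lowest value, in line 3, is the lowest Relb signal on the 42 arrays.

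Scid lines differed widely among themselves. Relb went from 35.9 to 722 in line 1, from 157 to 178 in line 2 and from 67.0 to 326 in line 3. Line 2 had the highest untreated value of the series, and its change of 0.17 was the smallest outside Atm-/-; lines 1 and 3 changed by 3.83 and 2.04. The mean change was 2.01 ± 0.42 (SE pooled over genotypes, adjusted p = 0.0073, with 2.69% of all genes called). The changes of these 3 lines alone had an SD of 1.83. The call was lost without line 1 (a change of 1.10, adjusted p = 0.352) and without line 3 (adjusted p = 0.054).

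In Mre11A/A lines the signal was higher after radiation in each line, by less than in WT lines. Relb went from 50.7 to 95.9 in line 1, from 90.5 to 172 in line 2 and from 61.9 to 178 in line 3. Irradiated and untreated arrays did not overlap. The change of 0.96 ± 0.42 was nonetheless not called (unadjusted p = 0.032, adjusted p = 0.9997), in a genotype where 0.0324% of all genes, 4 in number, were called.

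In lines that lack the chromatin proteins 53bp1, H2ax or Mdc1, Relb rose in each genotype. It went from 28.8, 55.9 and 98.5 to 326, 503 and 596 in 53bp1-/- lines 1, 2 and 3 (a change of 2.73 ± 0.42, adjusted p = 0.0004; 1.94% of all genes). In H2ax-/- lines it went from 54.0, 72.3 and 55.7 to 670, 702 and 571 (3.12 ± 0.42, adjusted p = 0.00012; 1.97%). In Mdc1-/- lines it went from 54.0, 24.4 and 56.9 to 512, 956 and 817, the highest level of Relb on any array (3.67 ± 0.42, adjusted p = 4.6e-06; 5.72%). The H2ax-/- lines were the most alike, with changes of 3.29, 3.02 and 3.03. Irradiated and untreated arrays did not overlap in any of the 3 genotypes.

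The difference of each mutant's response from that of WT was tested directly. For Relb it was -4.02 ± 0.59 in Atm-/- lines (SE, adjusted p = 0.0011; 2.07% of all genes differed). In Mre11A/A lines it was -1.95 ± 0.59 (unadjusted p = 0.0032, adjusted p = 0.305; 0.00809% of all genes, 1 gene, was called), with an interval of -3.18 to -0.72 (95%). In Scid lines it was -0.90 (-2.13 to 0.33; again 0.00809% of all genes). Differences in 53bp1-/- lines of -0.18 (-1.41 to 1.05), in H2ax-/- lines of 0.20 (-1.02 to 1.43) and in Mdc1-/- lines of 0.76 (-0.47 to 1.99) were not called either, and the intervals leave room for differences over 1 in each. In these 3 comparisons limma called 0 of 12363 genes (0% each), against 651, 561 and 637 genes with an unadjusted p under 0.05. The 6 comparisons share the WT arrays.

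Between mutants, Relb set Atm-/- lines apart from 4 of the other 5. The change in Atm-/- lines was lower by a log2 difference of -3.13 than in Scid (adjusted p = 0.0267), of -3.85 than in 53bp1-/- (0.0068), of -4.23 than in H2ax-/- (0.0031) and of -4.79 than in Mdc1-/- lines (0.0012), where p was adjusted over all genes and 15 pairs of mutants (0.168% of tests called). Without pairing of the lines the difference from Scid had adjusted p = 0.45 and 3 pairs were called, and 3 were also called without Atm-/- line 2, Atm-/- line 3 or Scid line 3. The difference from Mre11A/A, -2.07 ± 0.59, was not called (adjusted p = 0.217). Mre11A/A lines lay below Mdc1-/- lines by -2.71 (-3.94 to -1.48), with adjusted p = 0.0629. The F test among the 6 mutants called Relb (F = 17.3, adjusted p = 0.00097) and none of the other subunit genes (1.16% of all genes). Its adjusted p was 0.417 for Nfkb2 on the _x_at set, 0.775 for Rel and 0.755 for Rela. In the limma fit over every kept probe set, this F test called 2 subunit genes. There the Nfkb2 _a_at set had a lower change in Atm-/- lines than in each other mutant (adjusted p of 0.002 to 0.0447).

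Nfkb2, the partner of Relb in the noncanonical pathway, also rose, and how widely depended on the probe set. On the _x_at set, WT lines 1, 3 and 4 went from 138, 354 and 117 to 442, 567 and 515. The irradiated arrays lay above all untreated ones, and the change was 1.41 ± 0.28 (SE, adjusted p = 0.0038). In 53bp1-/- lines the signal went from 217, 158 and 142 to 352, 339 and 479 (1.11 ± 0.28, adjusted p = 0.035), and in Mdc1-/- lines from 222, 222 and 232 to 333, 594 and 504 (0.99 ± 0.28, adjusted p = 0.034). These were the 3 genotypes called on this set. The WT call was lost without line 4 (adjusted p = 0.0706), the Mdc1-/- call without line 2 or 3 (0.303 and 0.230), and the 53bp1-/- call without any 1 of its lines (0.0599 to 0.488) or under quantile normalization. Without pairing of the lines, adjusted p was 0.181 in 53bp1-/- and 0.177 in Mdc1-/- lines.

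The _x_at set was not called in the other genotypes. In Scid lines it went from 156, 285 and 301 to 713, 290 and 389, a change of 0.82 ± 0.28 (adjusted p = 0.148) that was 2.08 in line 1 and 0.02 in line 2. In Mre11A/A lines it went from 139, 138 and 172 to 206, 277 and 273 (0.69, adjusted p = 0.982), without overlap. In H2ax-/- lines it went from 217, 290 and 283 to 341, 383 and 267 (0.31, adjusted p = 0.81), with overlap. Atm-/- lines stayed between 165 and 229 on all 6 arrays (-0.12, adjusted p = 0.879). Among the 4 genes tested, 2 were therefore called in WT, 53bp1-/- and Mdc1-/- lines (Relb and Nfkb2), 1 in Scid and H2ax-/- lines (Relb) and 0 in Atm-/- and Mre11A/A lines, to be read against the shares of all genes given with Relb.

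On the _a_at set the rise was larger and more general. WT lines went from 68.8, 116 and 168 to 610, 968 and 561. Scid lines went from 117, 52.6 and 30.2 to 1250, 383 and 362, so that here line 2 rose as well. Mre11A/A lines went from 79.6, 56.5 and 65.4 to 172, 272 and 315. In each of these genotypes the irradiated arrays lay above all untreated ones.

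In 53bp1-/- lines this set went from 19.6, 80.7 and 183 to 351, 608 and 696, and in H2ax-/- lines from 112, 165 and 117 to 607, 723 and 475. In Mdc1-/- lines it went from 90.7, 87.6 and 204 to 507, 1179 and 1140. The arrays of both treatments were again apart in each genotype. Atm-/- lines went from 60.0, 122 and 87.6 to 69.2, 34.5 and 64.9, with overlap and with 1 line higher and 2 lower.

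In the limma fit over all 23245 kept probe sets, the changes of the Nfkb2 _a_at set (SE 0.31) were 2.48 in WT (adjusted p = 8.2e-05; 2.62% of probe sets called), 2.94 in Scid (6.1e-06; 1.91%), 1.66 in Mre11A/A (0.0454; 0.0473%), 2.63 in 53bp1-/- (2.7e-05; 1.31%), 2.07 in H2ax-/- (0.00066; 1.27%) and 2.74 in Mdc1-/- lines (7.2e-06; 4.08%). The change of -0.55 in Atm-/- lines was not called (adjusted p = 0.404; 1.38%). The Mre11A/A call was kept in 11 of 21 fits that left out 1 line, was lost without each Mre11A/A line in turn, and was lost under 5 of 6 other settings (adjusted p of 0.053 to 1.00, the highest without pairing of the lines). The _a_at set was higher after radiation in 18 of 18 lines that are not Atm-/-, by 0.98 to 3.53, and by more than the _x_at set in 17 of them, where the latter changed by -0.08 to 2.08. Across lines the changes of both sets had a Pearson correlation of 0.51 (21 lines) and 0.17 (18 lines that are not Atm-/-), and why they disagree was not tested.

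Against WT, the Nfkb2 response was smaller in Atm-/- lines on both sets. On the _x_at set the difference was -1.53 ± 0.40 (SE, adjusted p = 0.0432), and on the _a_at set it was -3.02 ± 0.44 (adjusted p = 0.0017; 1.39% of probe sets called). The first call was close to the threshold: adjusted p was 0.0534 over all probe sets, 0.48 without pairing and up to 0.138 when 1 line was left out. No other mutant was called on either set. The largest other difference was that of the _x_at set in H2ax-/- lines, -1.10 (-1.92 to -0.28, unadjusted p = 0.0105, adjusted p = 0.995), where the _a_at set differed by -0.41.

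**Figure D2:**
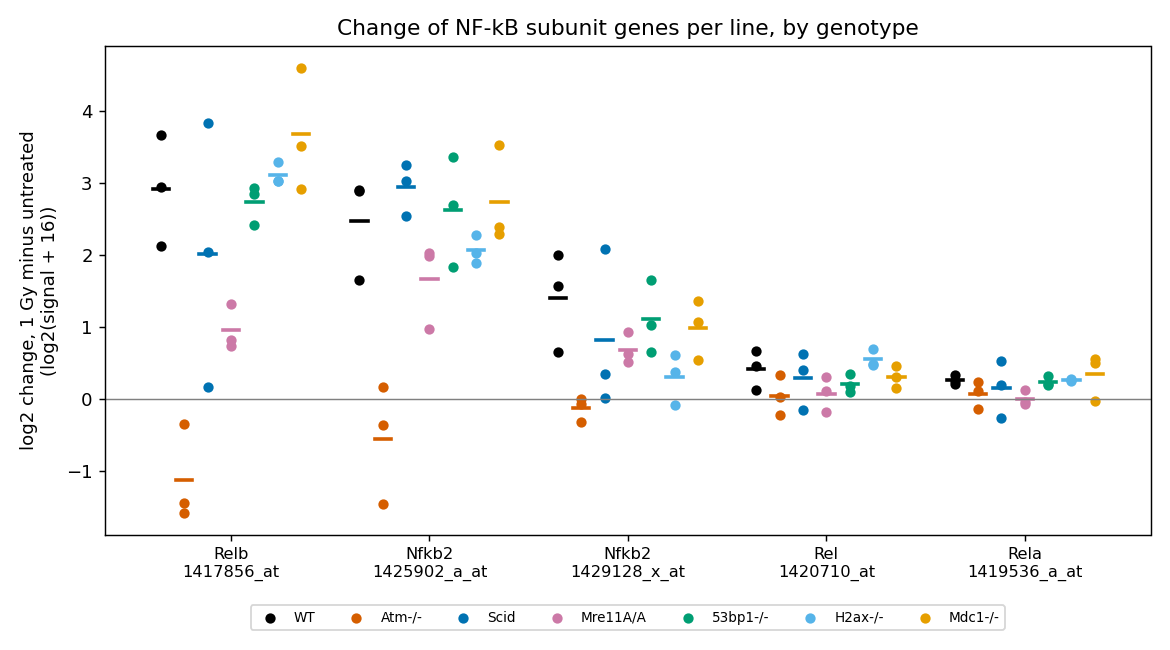
Log2 change after 1 Gy (vertical axis, irradiated minus untreated on log2(signal + 16)) for the 5 probe sets (horizontal axis); each point is 1 line, coloured by genotype, and each bar is the mean of 3 lines. Relb and the Nfkb2 _a_at set have means of 0.96 to 3.67 outside Atm-/- and negative means in Atm-/-, whereas means of Rel and Rela lie between 0.01 and 0.56.

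Rel was called in no genotype, although its signal was higher after radiation in 18 of 21 lines. In WT lines it went from 203, 235 and 267 to 285, 382 and 294, with the irradiated arrays above all untreated ones. The change was 0.42 ± 0.17 (SE, adjusted p = 0.196). H2ax-/- lines had the largest change of Rel: from 144, 159 and 279 to 209, 269 and 394, or 0.56 ± 0.17 (adjusted p = 0.0932), with changes of 0.49, 0.70 and 0.48. The arrays overlapped there because the lines differed in level.

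In the other genotypes Rel changed by 0.31 in Mdc1-/-, 0.29 in Scid, 0.21 in 53bp1-/-, 0.08 in Mre11A/A and 0.05 in Atm-/- lines. Mdc1-/- lines, with 174, 127 and 139 untreated and 219, 179 and 157 irradiated, held the lowest untreated array of the series. Atm-/- lines went from 196, 317 and 192 to 166, 325 and 246, with line 1 lower. In Scid lines the signal went from 246, 237 and 226 to 388, 320 and 202, in 53bp1-/- lines from 145, 182 and 232 to 157, 236 and 266, and in Mre11A/A lines from 193, 259 and 207 to 242, 283 and 181. Line 3 was the lower one in both Scid and Mre11A/A, and both treatments overlapped in all of these genotypes. No mutant was called against WT (differences of -0.37 in Atm-/- to 0.14 in H2ax-/- lines, SE 0.23).

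Rela was likewise called in no genotype, with mean changes of 0.01 to 0.35. In WT lines it went from 1207, 1377 and 1294 to 1403, 1746 and 1548, without overlap, a change of 0.27 ± 0.11 (SE, adjusted p = 0.213). H2ax-/- lines went from 1486, 1505 and 1639 to 1794, 1825 and 1955, also without overlap, by 0.27, with 3 lines between 0.25 and 0.28 (adjusted p = 0.307). The largest change was 0.35 ± 0.11 in Mdc1-/- lines (1672, 1559 and 1605 to 1642, 2300 and 2291; adjusted p = 0.069), where line 1 changed by -0.03. Without that line the change was 0.53 and was called (adjusted p = 0.0103), and it was also called without Scid line 1 or 2.

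The remaining Rela changes were 0.24 in 53bp1-/-, 0.16 in Scid, 0.07 in Atm-/- and 0.01 in Mre11A/A lines. In Mre11A/A lines the sign turned when arrays were centred on their 75th percentile (-0.014). Atm-/- lines went from 1617, 1236 and 998 to 1468, 1346 and 1179, and Mre11A/A lines from 1452, 1424 and 1654 to 1595, 1385 and 1578. In 53bp1-/- lines the signal went from 1200, 1391 and 1545 to 1379, 1612 and 1935. Scid lines went from 1313, 1380 and 1293 to 1907, 1152 and 1480, so that line 2 held the largest decrease of Rela. Both treatments overlapped in these 4 genotypes. Rela was higher in 16 of 21 lines, and no mutant was called against WT (-0.26 in Mre11A/A to 0.08 in Mdc1-/- lines, SE 0.16).

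The signed mean change of the noncanonical subunit genes lay above that of the canonical ones in every line that is not Atm-/-, and below it in the Atm-/- lines. For each line the mean change of Relb and Nfkb2 (_x_at set) was set beside that of Rel and Rela, without Nfkb1, and no test was made of this score. The noncanonical mean was larger in 18 of 21 lines, namely in 18 of the 18 that are not Atm-/- and in none of the 3 Atm-/- lines, where it lay further below 0 than the canonical mean lay from 0. Relb carried much of this score as computed with the _x_at set. On that set Nfkb2 by itself changed less than Rel in WT line 3 (0.656 against 0.664), Scid line 2 (0.02 against 0.41) and H2ax-/- lines 2 (0.38 against 0.70) and 3 (-0.08 against 0.48). The _a_at set, which the score does not use, changed by 0.98 to 3.53 in the lines that are not Atm-/-. That is above the largest Rel change of any line, 0.70 in H2ax-/- line 2. The difference, noncanonical minus canonical, was 1.82 ± 0.40 (SD, n = 3 lines) in WT, 2.01 ± 0.44 in Mdc1-/-, 1.70 ± 0.07 in 53bp1-/-, 1.30 ± 0.24 in H2ax-/-, 1.19 ± 1.18 in Scid, 0.78 ± 0.34 in Mre11A/A and -0.68 ± 0.59 in Atm-/- lines. In Scid lines it ran from 0.02 to 2.38. The noncanonical mean itself carried this spread, from -0.62 in Atm-/- to 2.33 in Mdc1-/- lines, while the canonical mean stayed between 0.05 and 0.41 in every genotype.

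**Figure D3:**
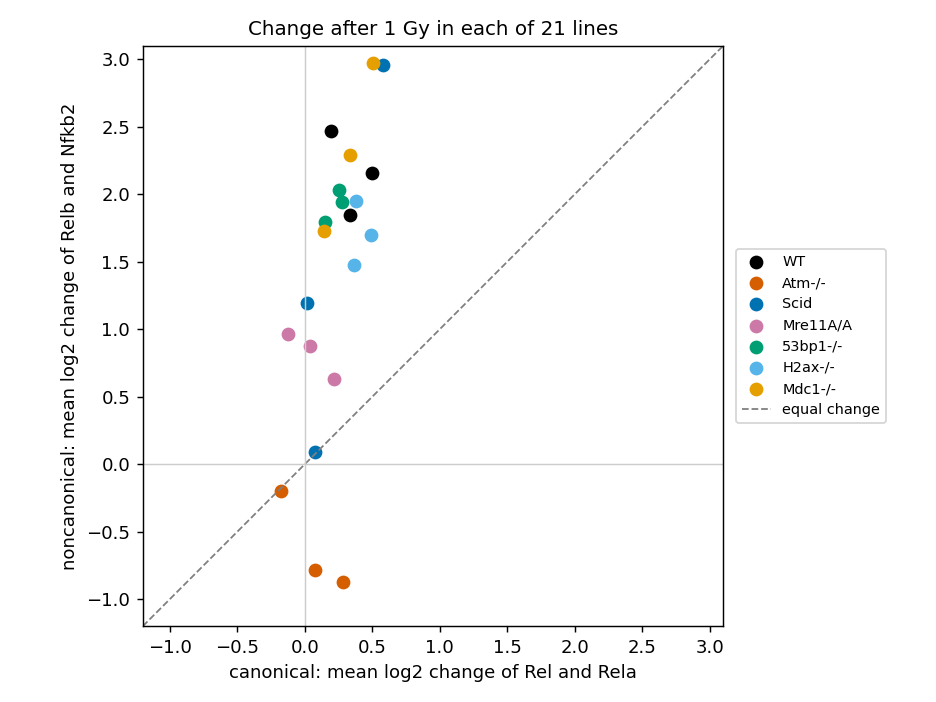
Mean log2 change of Relb and Nfkb2 (vertical axis) against that of Rel and Rela (horizontal axis) in 21 lines coloured by genotype; the dashed line marks equal change. The points of 18 lines lie above the dashed line and those of the 3 Atm-/- lines below it, and canonical means stay within a narrow band around the genotype means of 0.05 to 0.41.

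Across the 21 lines, the changes of Relb and Nfkb2 had a Pearson correlation of 0.60, and those of Relb and Rela one of 0.64. Over the 18 lines that are not Atm-/- these were 0.37 and 0.84. All points of 1 line share its 2 arrays, so that array-wide shifts enter every pair, and genotypes differ in level; the values are descriptions. The genes whose change was most like that of Relb among 12362 were Pim2, a survival kinase (0.94 over 21 lines, 0.94 over 18), Mob3a (0.91, 0.82) and Ltb, which encodes lymphotoxin beta, a ligand whose receptor feeds the noncanonical pathway (0.91, 0.82).

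For Nfkb2 (_x_at set) the most alike were Igf1, a growth factor (0.81, 0.78), Tspan5, a tetraspanin (0.78, 0.75), and Pidd1, a scaffold that assembles IKK signalling after DNA damage (0.73, 0.62). Over the 18 lines that are not Atm-/-, Igf1 ranked 4, Tspan5 9 and Pidd1 only 89. Other Igf1 sets changed by 0.32 to 0.62 in WT lines, against 1.31 on the set used. The other Nfkb2 set was closer to Relb, at 0.82 over 21 lines and 0.49 over 18. For Rel the most alike were Rabep2 (0.83, 0.79), Uqcrb, a subunit of mitochondrial complex III (0.79, 0.72), and Mzb1, a B-cell chaperone (0.79, 0.72). For Rela they were Epdr1 (0.80, 0.77), Prkcd, a protein kinase C (0.77, 0.80), and Pim2 again (0.76, 0.84). Changes of Rabep2 ran from -0.30 to 0.33 only, and those of Pim2 from -0.17 to 1.51.

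Inhibitors of NF-kB, many of them known targets of it, were called in part in the 5 genotypes in which Relb was called. Of 15 measured, 7 rose and 0 fell in WT lines, where 3.76% of all genes were called, with a median change of 0.35 against 0.01 over all genes. Nfkbie (IkB epsilon) rose by 2.32 ± 0.26 (SE, adjusted p = 2.2e-05) from a signal of 545 ± 86.5 (SD) to 2937 ± 1324, and Bcl3, a nuclear IkB protein, by 1.90. Tnfaip3, the A20 enzyme that shuts down IKK signalling, rose by 1.54, and Nfkbia (IkB alpha), which has 5 probe sets, by 0.92 (0.92 to 1.26 on all of them). The dimmer Tnfaip3 set had a change of 0.95 that was not called (adjusted p = 0.0585, limma over all kept probe sets). In Atm-/- lines (1.33% of all genes) 0 of 15 were called, with Nfkbie at 0.24, Bcl3 at 0.11, Tnfaip3 at 0.10 and Nfkbia at -0.14.

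The count of inhibitors that rose was 5 of 15 in Scid (2.69% of all genes called), 7 in 53bp1-/- (1.94%), 6 in H2ax-/- (1.97%) and 8 in Mdc1-/- lines (5.72%), and none fell. In Mre11A/A lines 0 were called, which is near the share of all genes called there (0.0324%); Nfkbie had a change of 0.86 with an unadjusted p of 0.0034 (adjusted p = 0.638). Against WT, 6 inhibitors responded less in Atm-/- lines and 0 more, in a comparison where 2.07% of all genes were called. Among the 6 were Nfkbia (-1.05 ± 0.14, adjusted p = 0.00068, but -0.45 and not called on 1 of its dimmer sets) and Nfkbie (-2.08 ± 0.37, adjusted p = 0.0055).

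Of 13 measured receptors that signal to NF-kB, Cd40 and Fas rose in WT, Scid, 53bp1-/-, H2ax-/- and Mdc1-/- lines (3.76%, 2.69%, 1.94%, 1.97% and 5.72% of all genes called, in that order). The other 11 were not called as higher in these genotypes, and the list median in WT lines was 0.36. Cd40, a receptor of B cells that uses both pathways, went from 49.4 ± 15.4 (SD) to 658 ± 220 in WT lines, a change of 3.33 ± 0.40 (SE, adjusted p = 3.5e-05), and its 3 probe sets changed by 3.33 to 3.56. In Atm-/- lines Cd40 changed by -0.25 and differed from WT by -3.58 ± 0.56 (adjusted p = 0.0017). Fas, a death receptor that is also a p53 target, rose by 1.54 in WT lines and had a change of 0.94 in Atm-/- lines (adjusted p = 0.249); its difference from WT, -0.60, was not called. Tlr4, a receptor for bacterial lipopolysaccharide, fell by 0.69 in WT and by 0.57 in Mdc1-/- lines on its brightest probe set, while its other 2 sets were not called in WT. Tnfrsf4 was not called in any genotype (-0.66 in WT). Receptors called in Atm-/- lines came to 1 of 13, Tlr9, which rose by 1.95 (1.33% of all genes called).

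Kinases, adaptors and other relay proteins had a median change of -0.05 in WT lines, against 0.01 over all genes. Among the 28 measured, 2 rose and 1 fell there (3.76% of all genes called). Birc3, a ubiquitin ligase that restrains NIK, rose by 1.19 ± 0.15 (SE, adjusted p = 5.5e-05), from 1394 ± 112 (SD) to 3236 ± 622, although its dimmer probe set changed by 0.09. Pidd1 rose by 1.33 ± 0.16 (adjusted p = 4.5e-05), from 369 ± 77.6 to 940 ± 48.3. Erc1, a protein of the IKK complex, fell by 0.61 on its brightest set, and its 3 other sets changed by -0.06 to 0.16. In Atm-/- lines 0 of 28 were called (1.33% of all genes), and Birc3 and Pidd1 differed from WT by -1.35 and -1.22 (adjusted p of 0.0017 and 0.0083). The relay counts were 3 up and 0 down in Scid (2.69% of all genes called), 2 and 0 in 53bp1-/- (1.94%), 4 and 1 in H2ax-/- (1.97%), and 6 and 1 in Mdc1-/- lines (5.72%). Malt1, a protease of antigen-receptor signalling, rose by 0.36 in H2ax-/- and by 0.31 in Mdc1-/- lines. Its change of 0.26 in WT lines was not called.

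Of other textbook target genes, a minority was called in each genotype. Of 22 measured, 9 rose and 0 fell in WT lines (3.76% of all genes called), with a median of 0.66. Cd69, an early activation marker of lymphocytes, rose by 2.26 ± 0.27 (SE), Icam1, an adhesion molecule, by 1.56 ± 0.21, Ltb by 1.51 ± 0.21 and Irf4, a transcription factor of B-cell maturation, by 0.70 ± 0.12 (adjusted p of 3.5e-05, 0.00011, 0.00011 and 0.00088). Irf4's second probe set had a change of 0.39 that was not called. In Scid, 53bp1-/- and H2ax-/- lines 5 of 22 rose in each (2.69%, 1.94% and 1.97% of all genes called) and in Mdc1-/- lines 8 rose (5.72%), and these 4 genes were called in each of the 4 genotypes.

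In Atm-/- lines 0 targets rose and 2 fell, Junb by 0.84 and Mir155hg, the host transcript of a microRNA, by 1.59 (1.33% of all genes were called, 64 up and 100 down). In Mre11A/A lines 0 were called, near the share of all genes (0.0324%), with changes of 0.76 for Cd69, 0.54 for Icam1 and 0.47 for Ltb. Against WT, 6 targets responded less in Atm-/- lines and 0 more (2.07% of all genes called). Among the 6 were Ltb (-1.79 ± 0.29, adjusted p = 0.0023) and Icam1 (-1.73 ± 0.30, adjusted p = 0.0043). The list median in Atm-/- lines was 0.01, against 0.03 over all genes.

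**Figure D4:**
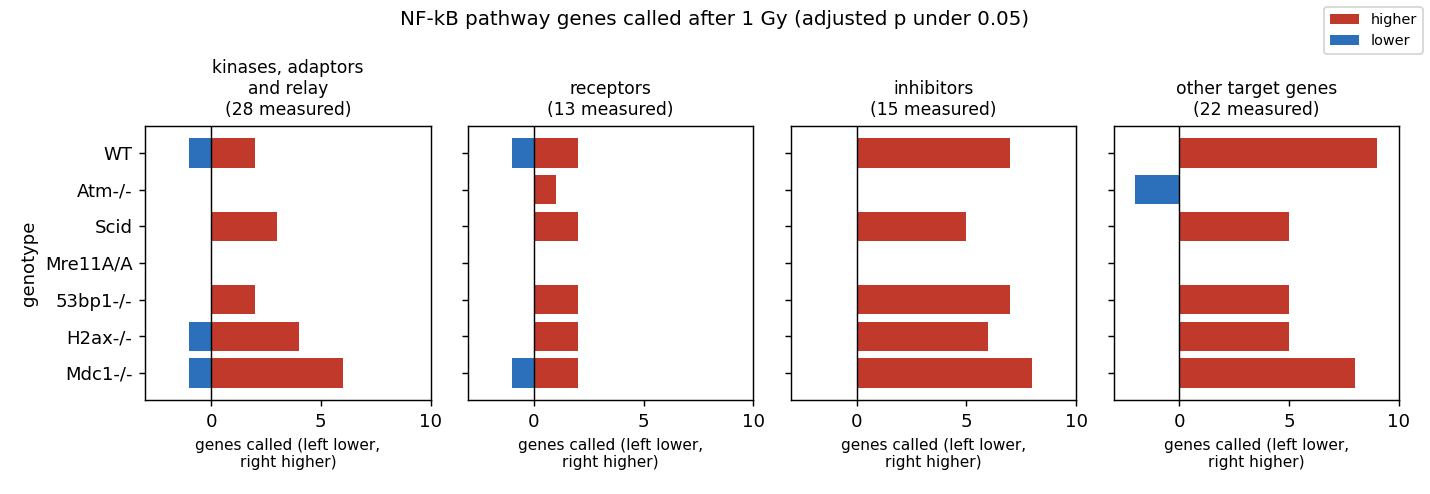
Number of genes of 4 NF-kB pathway lists called at an adjusted p under 0.05 after 1 Gy (horizontal axis; bars to the right count genes that rose, bars to the left genes that fell) in each genotype (vertical axis). Inhibitors and other target genes have 5 to 9 genes that rose in WT, Scid, 53bp1-/-, H2ax-/- and Mdc1-/- lines, and none that rose in Atm-/- and Mre11A/A lines. Of all genes, 3.76%, 2.69%, 1.94%, 1.97% and 5.72% were called in the first 5, 1.33% in Atm-/- and 0.0324% in Mre11A/A lines, so that 0 in Mre11A/A is near the share of all genes.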

How the data were processed

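RNA was labelled with the one-cycle protocol of Affymetrix, per the labels' protocols, and the authors deposited linear intensities per probe set. The submitters' processing notes name MAS5. Tools beyond MAS5 are not given in the sources used here. Groups, treatments and replicate numbers came from the labels.

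Of 45101 probe sets, 64 were controls, 34945 had 1 gene symbol, 932 several and 9160 were unnamed here. Those above their own array's median on at least 3 arrays were kept (28260, of which 23245 had 1 symbol), and the kept set with the highest mean stood for a gene, which left 12363 genes. From the deposited intensities, log2(signal + 16) was computed and fitted in R 4.3.3 with limma 3.58.1 (mean-variance trend), over all 42 arrays, each line being a fixed block, which left 14 residual degrees of freedom. Untreated levels were fitted on the 21 untreated arrays. P-values were two-sided and adjusted by Benjamini-Hochberg over all genes within a comparison, and jointly over the 15 pairs of mutants and over the 6 untreated comparisons. Scripts were tested on simulated data. Tables were read with the data.table package (version 1.17.8). Plots used matplotlib 3.10.9, with pandas 2.3.3 and numpy 2.4.6, under Python 3.11.15.

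The series' design text compares the arrays of each line, so the line was a block. The numbers paired the arrays: between the untreated and irradiated array of a line, departures from the group mean had correlations of 0.354 to 0.643 (21 lines). For 42 pairs of arrays from different lines of a genotype they were -0.442 to -0.0526. Departures within a group of 3 arrays sum to 0, so these negative values follow in part from the positive ones and are not separate support. With 3 lines per genotype, the number of arrays limits the precision.

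The members and gene lists were chosen with earlier results of these data known. Named genes were the subunit genes, for each the 3 genes with the highest correlation of change over the 21 lines, and up to 4 genes per pathway list with the smallest adjusted p in the WT response; members of a small count (Tlr9, Junb, Mir155hg) were named after their values were seen. Alternatives were a pseudocount of 1, no filter, quantile normalization, centring on the 75th percentile, every kept probe set, no pairing of lines, untreated levels from all 42 arrays, each line left out, and both lines of highest median signal left out.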

Additional observations from a re-analysis of the deposited data

Results flagged for a closer look

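The radiation response of Relb differed between genotypes by tests of the difference itself. It was lower in Atm-/- than in WT lines by a log2 difference of -4.02, and lower than in Scid (-3.13), 53bp1-/- (-3.85), H2ax-/- (-4.23) and Mdc1-/- lines (-4.79). The F test among the 6 mutants gave F = 17.3. Nfkb2 differed between Atm-/- and WT lines by -1.53 on the probe set that stood for the gene, a call kept in 10 of 21 fits that left out 1 line. On its _a_at probe set, the change in Atm-/- lines was lower by -3.02 than in WT (adjusted p = 0.0017, limma over all kept probe sets). It was lower by -3.49 than in Scid (adjusted p = 0.002), -2.21 than in Mre11A/A (0.0447, close to the threshold), -3.18 than in 53bp1-/- (0.0043), -2.61 than in H2ax-/- (0.015) and -3.28 than in Mdc1-/- lines (0.0032). These p-values were adjusted jointly over probe sets and pairs of mutants. The share of all such tests called is not given here, and these pairs were not rerun under other settings. Groups of 3 lines were too small for a search for single outlying lines.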

How the results depend on the processing

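With 3 lines per genotype and Relb near the array median when untreated, small differences between responses were not resolvable. Numbers of genes called and numbers of subunit genes called both moved with the settings. With no replicate block (lines unpaired), genes called were 12 in WT, 1 in Atm-/-, 9 in Scid, 0 in Mre11A/A, 3 in 53bp1-/-, 11 in H2ax-/- and 78 in Mdc1-/- lines, 3 for Atm-/- against WT, 0 for Scid and 0 for Mre11A/A against WT, 5 over the pairs and 2 by the F test among mutants. Subunit genes called without the block were 0 in Scid, 1 in 53bp1-/-, 1 in Mdc1-/- and 1 for Atm-/- against WT, and 3 in place of 4 over the pairs; Relb in Scid lines then had adjusted p = 0.0619, and the Nfkb2 _a_at set had 0.161 in H2ax-/- lines and 0.192 for Atm-/- against WT. Calls of Relb in WT, 53bp1-/-, H2ax-/- and Mdc1-/- lines, and for Atm-/- against WT, held under every setting run.

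With a pseudocount of 1, Mre11A/A against WT gave 0 genes, and the noncanonical minus canonical change in 53bp1-/- lines was 1.89. Without the filter, 1 subunit gene was called for Atm-/- against WT, and Scid against WT gave 0 genes. With quantile normalization 1 subunit gene was called in 53bp1-/- lines, and Scid and Mre11A/A against WT gave 0 genes. Centring on the 75th percentile turned Rela in Mre11A/A lines to -0.014. With every kept probe set, calls came to 321 in Atm-/-, 11 in Mre11A/A, 0 for Scid and 0 for Mre11A/A against WT, 3624 for untreated mutants against WT and 3565 by the untreated F test. Subunit calls there were 2 in Scid, 1 in Mre11A/A, 2 in H2ax-/-, 9 over the pairs and 2 by the F test. With the mean change of both Nfkb2 sets in place of the _x_at set, noncanonical minus canonical was 2.08 in 53bp1-/- and 1.74 in H2ax-/- lines. On the _a_at set alone, Nfkb2 against WT turned to 0.46 in Scid, 0.15 in 53bp1-/- and 0.26 in Mdc1-/- lines. Without both lines of highest median signal, 1 subunit gene was called in WT and 1 for Atm-/- against WT, and genes called were 336 in Atm-/-, 18 in Mre11A/A, 554 for Atm-/- against WT, 0 for Scid and 4 for Mre11A/A against WT, and 552 over the pairs. The cause of these moves was not tested, beyond the fewer samples or other probe sets that the settings themselves bring.

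Leaving out 1 line at a time, genes called ran from 114 to 540 in WT, 86 to 304 in Atm-/-, 66 to 387 in Scid, 0 to 21 in Mre11A/A, 80 to 276 in 53bp1-/-, 50 to 296 in H2ax-/- and 310 to 866 in Mdc1-/- lines. The lowest of these counts came without WT line 3, Atm-/- line 3, Scid line 1, Mre11A/A line 2, 53bp1-/- line 2, H2ax-/- line 1 and Mdc1-/- line 3. They ran from 25 to 600 for Atm-/- against WT (25 without WT line 3, 600 without WT line 4), 0 to 3 for Scid, 0 to 17 for Mre11A/A and 0 to 1 for H2ax-/- against WT, 139 to 492 over the pairs, 64 to 191 by the F test among mutants and 491 to 1721 for untreated mutants. Subunit genes called ran from 1 to 2 in WT, 0 to 2 in Scid, 1 to 2 in 53bp1-/-, 1 to 3 in Mdc1-/-, 1 to 2 for Atm-/- against WT and 0 to 1 by the untreated F test. The Nfkb2 _x_at set gained a call in Scid lines without line 2 (adjusted p = 0.0394). Uncalled values that changed sign were Relb against WT in Scid (-1.81 to 0.026), 53bp1-/- (-0.57 to 0.20) and H2ax-/- (-0.19 to 0.58), Rel in Atm-/- (-0.093 to 0.18) and Mre11A/A (-0.030 to 0.21), and Rela in Atm-/- (-0.0083 to 0.18), Scid (-0.032 to 0.36) and Mre11A/A lines (-0.053 to 0.048).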
